A study of Mus musculus with 9 samples.

Results

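The expressed long intergenic noncoding RNA (lincRNA) genes of the mouse heart were 163 of the 1192 genes that the deposited file types as lincRNA, among 25468 genes in all. A gene entered the set if its FPKM (a read level scaled by the length of the transcript and the size of the library), summed over its lincRNA transcripts, averaged 2 or more over the 9 libraries. The genes AI662270, H19 and Meg3 were left out by symbol. Just inside the minimum lay 2810405F17Rik at 2.01 FPKM, and just outside it lay Gm19705 at 1.99 and E230001N04Rik at 1.94 FPKM. The set was thus chosen on the mean level over all libraries, and a low-level gene could enter through the group where it was highest. Of the 163 genes, 130 reached 2 FPKM in all 3 group means, 33 were under it in at least 1 group, and 13 reached it in 1 group only.

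The libraries were made from hearts of wild-type mice. They comprised 3 libraries taken 1 day and 3 taken 7 days after acute myocardial infarction, and 3 of sham-operated hearts. Strain, age, the day of sham collection and whether each library came from its own animal are not given in the labels, so p-values measure the spread between these libraries. The same sham libraries served both infarct times. The labels' protocol also names Hdc-/- mice, but none of these 9 libraries carries that label, and such hearts were not analysed here.

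LincRNAs are transcribed by RNA polymerase II from their own promoters, are usually spliced and polyadenylated, and carry no long open reading frame. Some hold nuclear bodies together, some act on neighbouring genes, some are spliced to release small nucleolar RNAs or microRNAs from their introns, and some RNAs filed as lincRNAs were later found to encode micropeptides. In the heart, individual lincRNAs are known for roles in the cardiomyocyte lineage, in smooth muscle and in the response to injury.

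Of the 163 genes, 131 carried a symbol and 32 were assembled loci with an identifier but no symbol. The GENCODE M21 annotation matched 129 by identifier. Among the 131 genes with an annotated leading transcript, 8 had a leading transcript of 1 exon, 70 of 2 exons and 53 of 3 or more, with a median length of 1399 nt. By symbol or synonym, RefSeq listed 63 of the set, 9 of them as protein coding. One of these, Gm38399, was matched under the name of Nav1, the coding gene it overlaps. A microRNA hairpin lay within 4 genes. Their mature microRNAs are shown because the seed sets which targets each host's product pairs with; the mature forms were not measured here. Sequences are from RefSeq on GRCm38.p6, with the seed (bases 2 to 8), the part that pairs with targets, in capitals. The hosts were Mir142hg (miR-142a), E130102H24Rik (miR-101a), Snhg20 (miR-6516) and 2900076A07Rik (miR-1839). No 2 of these 7 microRNAs shared a seed.
mmu-miR-142a-5p (chr11:87756867-87756887, plus strand): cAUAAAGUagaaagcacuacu
mmu-miR-142a-3p (chr11:87756903-87756925, plus strand): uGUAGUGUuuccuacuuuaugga
mmu-miR-101a-3p (chr4:101346957-101346977, minus strand): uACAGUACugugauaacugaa
mmu-miR-101a-5p (chr4:101346993-101347014, minus strand): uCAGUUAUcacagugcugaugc
mmu-miR-6516-5p (chr11:117077370-117077391, plus strand): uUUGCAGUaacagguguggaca
mmu-miR-6516-3p (chr11:117077412-117077433, plus strand): uCAUGUAUgauacugcaaacag
mmu-miR-1839-5p (chr7:81529919-81529940, plus strand): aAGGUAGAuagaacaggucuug

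RefSeq promoter windows (250 bases before to 50 after the start, GRCm38.p6) were found for 49 genes of the set, 54 windows in all. Shown first are the windows of Dubr, Snhg18 and Snhg20, the genes with a window that passed the test for a rise in either infarct group. Capitals mark matches, on either strand, to 10 motifs searched by their letters. These were TGANTCA for AP-1, TGACGTCA for the cAMP response element, TATAAA for the TATA box, the CCAAT box by its own letters, CACGTG for the E-box of MYC, GGAATG for TEAD, CCGGAAG for ETS, TTCNNNGAA for STAT, AGATAA for GATA factors and the consensus of NF-kB. Dubr held a STAT and a GATA match, Snhg20 an ETS match, and Snhg18 none of the 10.
Dubr (chr16:50732724-50733023, minus strand): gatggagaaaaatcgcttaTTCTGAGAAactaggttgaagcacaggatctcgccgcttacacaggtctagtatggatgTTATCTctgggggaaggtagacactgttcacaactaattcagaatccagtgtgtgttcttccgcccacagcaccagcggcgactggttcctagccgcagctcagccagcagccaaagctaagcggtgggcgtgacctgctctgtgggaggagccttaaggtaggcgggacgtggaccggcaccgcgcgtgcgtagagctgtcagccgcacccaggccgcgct
Snhg18 (chr15:32244613-32244912, minus strand): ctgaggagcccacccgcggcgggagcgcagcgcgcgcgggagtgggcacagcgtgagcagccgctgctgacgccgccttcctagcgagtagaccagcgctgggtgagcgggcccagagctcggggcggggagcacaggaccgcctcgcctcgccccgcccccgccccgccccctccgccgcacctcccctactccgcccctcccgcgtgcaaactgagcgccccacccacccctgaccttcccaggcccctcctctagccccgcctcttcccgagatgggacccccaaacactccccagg
Snhg20 (chr11:117076533-117076832, plus strand): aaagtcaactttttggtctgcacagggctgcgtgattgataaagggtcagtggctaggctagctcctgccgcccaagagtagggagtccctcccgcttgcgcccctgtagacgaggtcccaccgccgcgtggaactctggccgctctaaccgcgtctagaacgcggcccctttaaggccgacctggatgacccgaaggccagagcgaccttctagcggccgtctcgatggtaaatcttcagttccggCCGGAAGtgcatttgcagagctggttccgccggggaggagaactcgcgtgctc

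Next are the windows of Gm26795, AW112010 and 1810044D09Rik, the 3 largest day 1 falls among the genes with a window that passed the test for a fall at both times. Gm26795 held a TATA box match, AW112010 an NF-kB match, and 1810044D09Rik an NF-kB and a cAMP response element match, none of them overlapping another.
Gm26795 (chr8:28593280-28593579, plus strand): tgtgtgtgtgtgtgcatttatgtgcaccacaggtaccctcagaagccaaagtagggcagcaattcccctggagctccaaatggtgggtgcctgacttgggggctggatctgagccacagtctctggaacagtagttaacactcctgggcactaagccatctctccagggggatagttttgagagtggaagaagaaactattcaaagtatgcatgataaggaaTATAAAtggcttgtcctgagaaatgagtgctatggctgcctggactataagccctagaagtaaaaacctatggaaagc
AW112010 (chr19:11050517-11050816, minus strand): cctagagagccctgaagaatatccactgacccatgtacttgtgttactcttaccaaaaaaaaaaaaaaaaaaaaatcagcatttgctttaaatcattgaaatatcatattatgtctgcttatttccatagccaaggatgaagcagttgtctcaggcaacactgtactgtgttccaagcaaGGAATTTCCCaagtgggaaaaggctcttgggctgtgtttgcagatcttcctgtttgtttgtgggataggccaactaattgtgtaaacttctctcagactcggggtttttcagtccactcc
1810044D09Rik (chr6:91440737-91441036, plus strand): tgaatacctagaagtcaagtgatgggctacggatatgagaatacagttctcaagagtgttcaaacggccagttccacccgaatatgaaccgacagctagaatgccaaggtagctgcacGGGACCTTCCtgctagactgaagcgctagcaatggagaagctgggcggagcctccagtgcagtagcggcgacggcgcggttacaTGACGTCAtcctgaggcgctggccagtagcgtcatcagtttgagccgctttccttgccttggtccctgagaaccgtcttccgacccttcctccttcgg

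NF-kB matches stood in 2 of the 54 windows (3.7%) and in 1.47% of the 32851 windows in the RefSeq table. In the same order, the set's windows and then all windows, TATA box matches stood in 7.41% and 13.6%, cAMP response elements in 9.26% and 1.79%, STAT matches in 9.26% and 8.3%, and AP-1 matches in 3.7% and 7.81%. CCAAT boxes stood in 44.4% and 37.4%, TEAD matches in 24.1% and 14.7%, ETS matches in 13% and 8.86%, GATA matches in 13% and 11.2%, and E-boxes in 9.26% and 7.15%. These are counts of letters and carry no test.

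Levels spanned more than 3 orders of magnitude. Of the set, 90 genes averaged 2 to under 5 FPKM, 36 averaged 5 to under 10, 30 averaged 10 to under 100 and 7 averaged 100 or more, with a median of 4.15 FPKM. Malat1, the RNA of nuclear speckles, alone held 50.4% to 73.1% of the FPKM of the set in each library. Within groups, the SD was typically 17.4% of the mean at day 1, 19.4% at day 7 and 13.3% in sham (medians over the set).

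Several libraries stood apart from their groups. Ventricular cardiomyocyte markers such as Myh6 and Myl2 were abundant in every library, as the label heart implies. Library totals of FPKM ranged between 521642 (day 7 replicate 1) and 792631, so libraries were not scaled to a common total. Markers of airway epithelium and lung summed to 1770 FPKM in day 1 replicate 2 and 213 in sham replicate 1, and to at most 18.5 elsewhere. The 6 atrial cardiomyocyte markers varied widely within every group, with sums of 11106, 4387 and 284 FPKM at day 1 and 5449.9, 799.8 and 1423 FPKM at day 7, against 2698, 1456 and 237 FPKM in sham. T cell markers summed to 92.2 FPKM in day 7 replicate 2 and to 17.6 or less elsewhere. Results were therefore also computed without the 2 libraries with airway markers, and without the 2 day 7 libraries named next.

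The set itself showed a split within day 7. Gm26917, the second most abundant gene of the set, had 2669, 3060.3 and 3621 FPKM at day 1, 25.4, 26.6 and 3297 FPKM at day 7, and 2522, 2698.5 and 2637 FPKM in sham. Day 7 replicates 1 and 2 were thus far below the other 7 libraries, while day 7 replicate 3 was within their range. Yam1, which GENCODE places on the opposite strand of the ribosomal RNA-related gene Gm42418 and which was chosen after its values were seen, had 14.9, 19.3 and 18.3 FPKM at day 1, 11.1, 2.23 and 308 FPKM at day 7, and 35.0, 36.2 and 34.2 FPKM in sham. Its single high library was day 7 replicate 3. Neither gene passed the test in any comparison (Gm26917, limma adjusted p = 0.0651 for day 7 against sham).

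**Figure D1:**
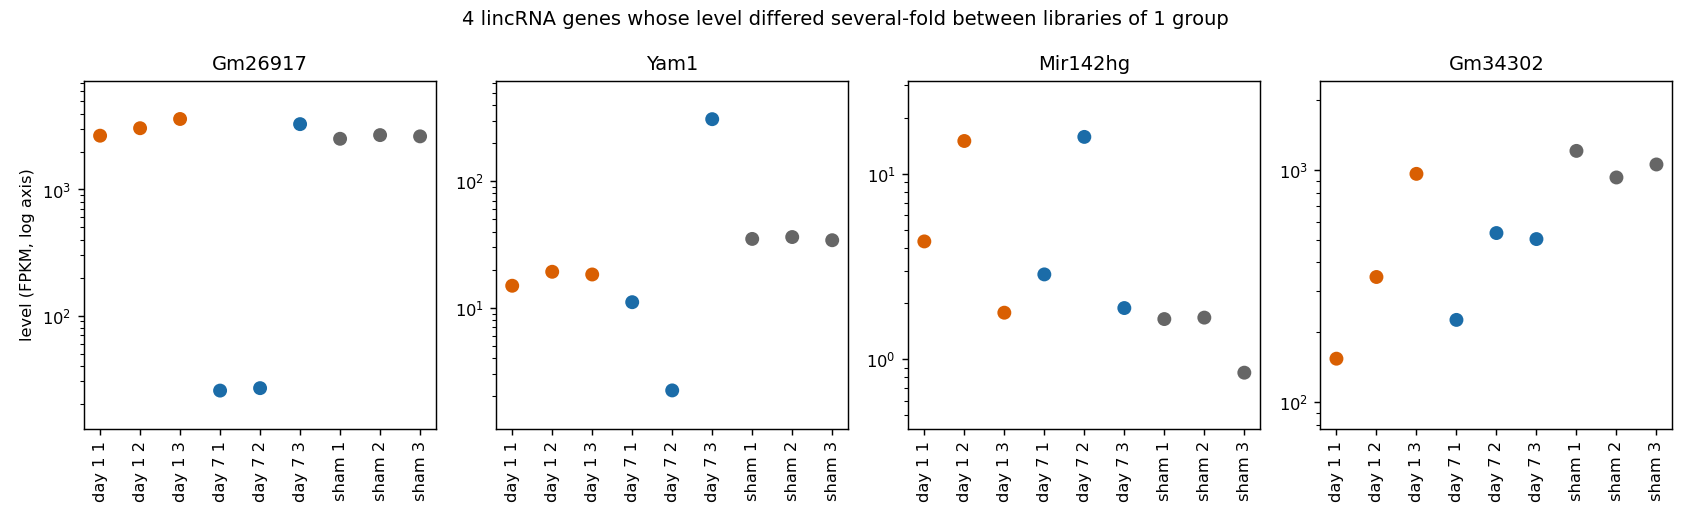
Level in FPKM (log axis) of 4 lincRNA genes in each of the 9 libraries, coloured by group, with replicates numbered. Gm26917 was at 25.4 and 26.6 FPKM in day 7 replicates 1 and 2 and at 2522 or more elsewhere, Yam1 peaked at 308 FPKM in day 7 replicate 3, Mir142hg reached 15.0 and 15.8 FPKM in 1 library of each infarct time, and Gm34302 varied from 154 to 963 FPKM within day 1.

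The comparison of infarct day 1 with sham asks which lincRNAs differed early after the injury. Values were compared as log2(FPKM + 1) with limma over all 13514 genes with a mean of 1 FPKM or more, and a gene was called at a Benjamini-Hochberg adjusted p under 0.05. Log2 fold changes on this scale understate changes of low-level genes. Of the set, 7 genes rose and 30 fell, which is 4.29% and 18.4%, where 28.2% of all genes tested were called, 13.5% higher and 14.8% lower. The share that fell was near the background and the share that rose was below it. Among the 130 genes at 2 FPKM or more in every group mean, a restriction that itself removes low-level genes that fell, 6 rose and 16 fell. The median log2 fold change of the set was -0.11, against -0.01 for all genes tested.

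Gm26522, whose gene lies over Ctsc on the other strand, had the largest called rise. It had 5.01, 4.996 and 3.11 FPKM at day 1, against 0.668, 0.662 and 1.44 FPKM in sham (log2 fold change 1.48, SE 0.20, limma adjusted p = 0.00292). The groups did not overlap, but its group means were 4.37 FPKM at day 1, 0.941 at day 7 and 0.925 in sham, so it entered the set only through the group where it was high. Gm12840 rose at a much higher level, with 287, 364 and 306 FPKM at day 1 and 139, 139 and 118 FPKM in sham (log2 fold change 1.26, SE 0.13, limma adjusted p = 0.0013). Its lowest day 1 library was well above its highest sham library. Gm20186, which starts beside the splicing factor gene Lsm8 on the other strand, had 33.7, 49.2 and 30.8 FPKM at day 1, against 24.2, 14.6 and 15.1 FPKM in sham (log2 fold change 1.04, SE 0.21, limma adjusted p = 0.0106). Smaller rises passed for the entry Hist2h2bb, whose exons overlap a histone gene on the same strand and whose reads may be shared with it (log2 fold change 0.84 ± 0.19, with SE after ± for fold changes from here on), Gm26857 (0.71 ± 0.12), the small nucleolar RNA host Snhg18 (0.48 ± 0.14) and Dubr (0.30 ± 0.08), a lincRNA of mouse muscle differentiation.

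The largest called fall of a gene with a symbol at day 1 was that of RP23-178C20.4, with 0.978, 1.47 and 2.19 FPKM at day 1, against 4.02, 10.1 and 3.23 FPKM in sham (log2 fold change -1.31, SE 0.33, limma adjusted p = 0.0213). Its day 1 mean lay under 2 FPKM, so it did not reach the minimum through day 1, and sham replicate 2 was far above the other sham libraries. The call was lost in 3 of 22 alternative settings. AW112010, an RNA known in mouse macrophages as induced by inflammatory stimuli, also fell. It had 14.3, 24.8 and 19.3 FPKM at day 1, against 44.4, 40.1 and 38.2 FPKM in sham (log2 fold change -1.06, SE 0.17, limma adjusted p = 0.00488). Its highest day 1 library was below its lowest sham library, while 5 of 8 monocyte and macrophage markers rose in the same libraries. RP23-281H4.12 had 88.2, 72.6 and 107 FPKM at day 1, against 206, 172 and 164 FPKM in sham (log2 fold change -1.02, SE 0.19, limma adjusted p = 0.00814). Gm26795 (-1.13 ± 0.18), 1810044D09Rik (-1.06 ± 0.25), 2310040G24Rik (-1.03 ± 0.27) and Gm5532 (-1.0 ± 0.21), the last named after its values were seen, fell by a similar amount. Gm26795 reached 2 FPKM in the sham mean only, and so entered the set through the group where it was high.

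All 7 rises and 29 of the 30 falls had groups that did not overlap. In all, 15 genes of the set lay above and 51 below sham without overlap (40.5%), where 47.6% of all genes tested had such groups. Leaving out both libraries with airway markers kept the direction of all 37 calls, with a median size of 0.87 against 0.84 log2 units, but only 6 stayed called. The count was then 3 rises and 3 falls.

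**Figure D2:**
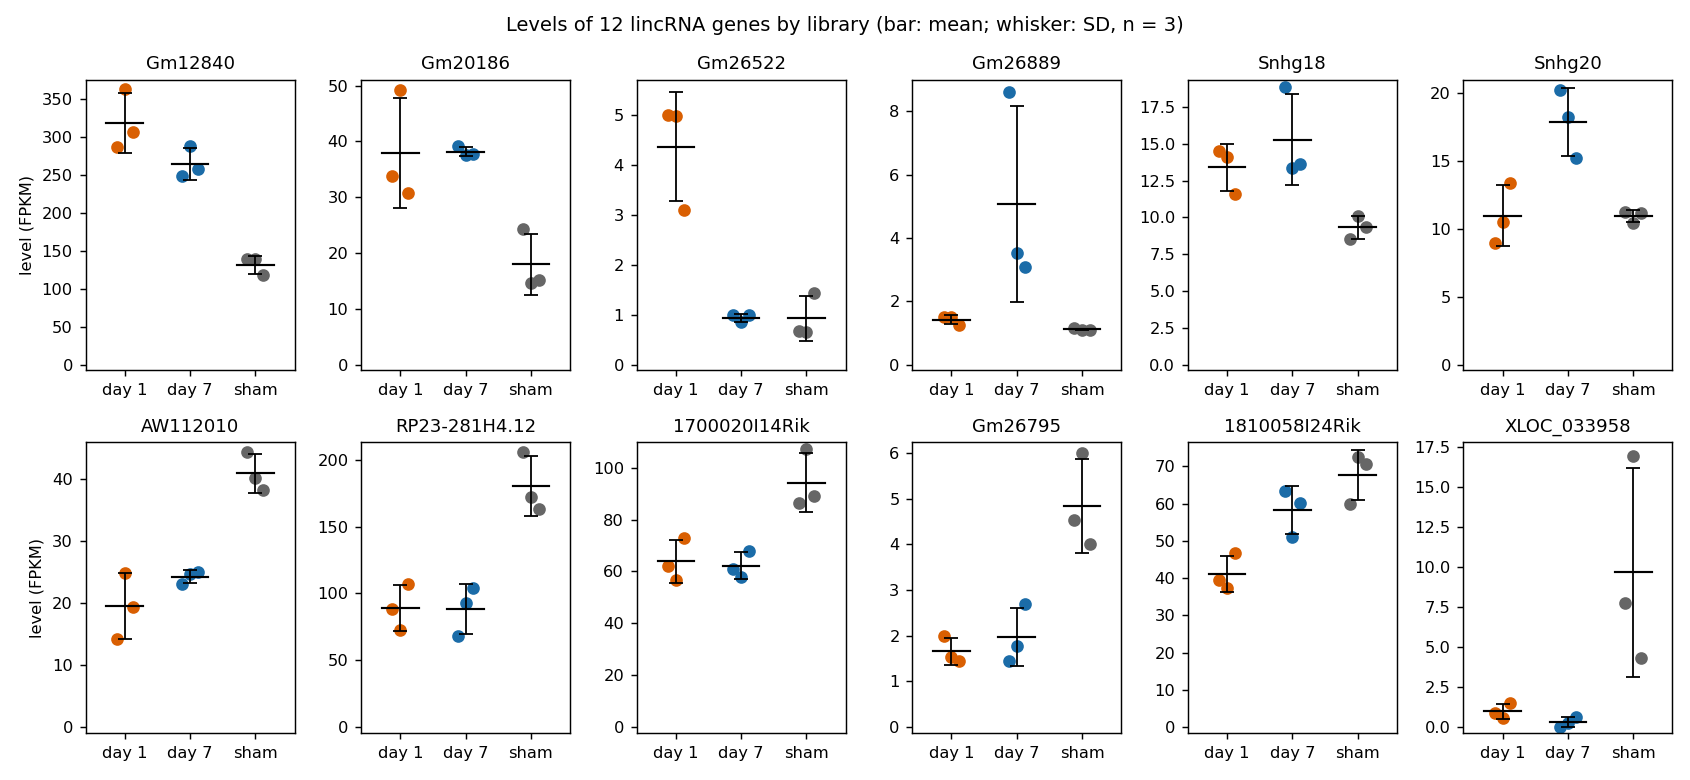
Level in FPKM of 12 lincRNA genes in each library (points), with the mean (bar) and SD (whisker, n = 3), for infarct day 1, infarct day 7 and sham. The upper row shows genes called higher in at least 1 infarct group and the lower row genes called lower; Gm26522 was high only in the day 1 libraries (3.11 to 5.01 FPKM) and Gm26889 in the day 7 libraries (3.08 to 8.62 FPKM).

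The comparison of infarct day 7 with sham asks the same of the healing phase. Of the set, 11 genes rose and 42 fell (6.75% and 25.8%), where 33.1% of all genes tested were called, 15.7% higher and 17.3% lower. Among the 130 genes at 2 FPKM or more in every group mean, 10 rose and 24 fell. Groups did not overlap for 19 genes above and 52 below sham (43.6%), where 53.7% of all genes tested had such groups. The median log2 fold change of the set was -0.20, against -0.02 for all genes.

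Gm26889, whose leading transcript lies almost wholly in exons of the matrix protein gene Svep1 on the other strand, had 8.62, 3.51 and 3.08 FPKM at day 7, against 1.14, 1.10 and 1.08 FPKM in sham (log2 fold change 1.41, SE 0.28, limma adjusted p = 0.00906). One library, day 7 replicate 1, was far above the other two. With group means of 1.41 FPKM at day 1, 5.07 at day 7 and 1.11 in sham, this gene entered the set only through day 7. Gm20186 had 39.2, 37.6 and 37.7 FPKM at day 7 (log2 fold change 1.08, SE 0.21, limma adjusted p = 0.00925) and Gm12840 had 248, 288 and 258 FPKM (log2 fold change 1.00, SE 0.13, limma adjusted p = 0.00256), both above all sham libraries given earlier. Snhg20 had 20.2, 18.2 and 15.2 FPKM at day 7, against 11.2, 10.4 and 11.1 FPKM in sham (log2 fold change 0.65, SE 0.14, limma adjusted p = 0.0125). The entry Hist2h2bb (0.78 ± 0.19), Gm38399 (0.66 ± 0.13), Gm26751 (0.66 ± 0.14), Snhg18 (0.64 ± 0.14) and the assembled locus XLOC_016860 (0.47 ± 0.12) also rose. The last rises were those of Bvht (0.40 ± 0.13), known as Braveheart for its role in committing mouse embryonic stem cells to the cardiac lineage, and Dubr (0.30 ± 0.08).

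The deepest called fall was that of the assembled locus XLOC_033958, listed at 0, 0.292 and 0.613 FPKM at day 7 and at 0.894, 0.588 and 1.49 FPKM at day 1, against 7.72, 16.9 and 4.32 FPKM in sham (day 7 log2 fold change -2.88, SE 0.40, limma adjusted p = 0.00327). Sham libraries themselves spread widely for this locus, yet the lowest was above every infarct library. Its group means were 0.992 FPKM at day 1, 0.302 at day 7 and 9.65 in sham, so it entered the set only through sham and had to be lower in infarct hearts. RP23-281H4.12 (-1.04 ± 0.19), 2310040G24Rik (-1.01 ± 0.27), Gm26795 (-0.98 ± 0.18), 1810044D09Rik (-0.87 ± 0.25) and AW112010 (-0.73 ± 0.17) fell at day 7 as at day 1. Gm26825 had 27.7, 30.4 and 36.2 FPKM at day 7, against 60.0, 60.3 and 41.7 FPKM in sham (log2 fold change -0.75, SE 0.17, limma adjusted p = 0.0138). Gm26899 had 53.1, 65.1 and 82.0 FPKM at day 7, against 102, 143 and 108 FPKM in sham (log2 fold change -0.81, SE 0.19, limma adjusted p = 0.0142).

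Genes called higher at both times were 5 (Gm12840, Gm20186, Hist2h2bb, Snhg18 and Dubr), and 23 were lower at both. Genes called at day 1 alone were 2 higher (Gm26522 and Gm26857) and 7 lower, and at day 7 alone 6 higher and 19 lower. None was called in opposite directions, and 101 were called at neither time. The sham libraries are shared, so these 2 sets of calls are not independent.

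Leaving out day 7 replicates 1 and 2, chosen after seeing the data, left 1 day 7 library, which was then assumed to vary like the other groups. All 53 day 7 calls kept their direction, the median size was 0.57 against 0.76 log2 units, and 3 stayed called. Rescaling every library to a common total (TPM) moved the median of all genes to 0.22 at day 1 and 0.28 at day 7. The set then had 12 rises and 16 falls at day 1 and 21 rises and 15 falls at day 7, with a median of 0.11 log2 units at each time, below that of all genes. Under TPM, all 37 day 1 calls kept their direction and 23 stayed called, with a median size of 0.73 against 0.84 log2 units. Of the 53 day 7 calls, 52 kept their direction and 26 stayed called, with a median size of 0.62 against 0.76 log2 units.

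**Figure D3:**
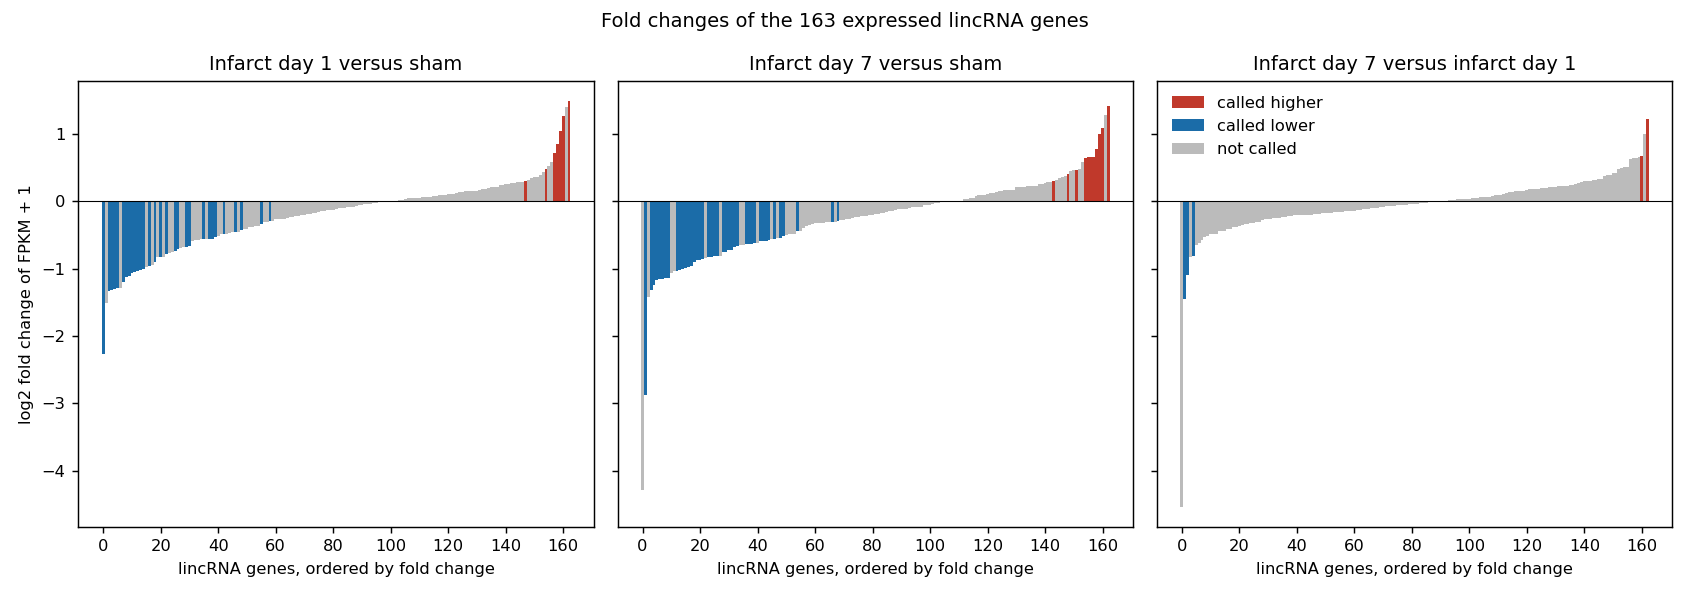
Log2 fold changes of FPKM + 1 for all 163 lincRNA genes in the 3 comparisons, each ordered from lowest to highest, with called genes in red (higher) and blue (lower). At day 1 the calls were 7 higher and 30 lower, at day 7 they were 11 higher and 42 lower, and between the infarct times 2 higher and 3 lower. Gm26917, at -4.29 at day 7, was not called.

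Between day 7 and day 1, 2 genes of the set were higher and 3 lower, which is 3.07% of the set, where 4.85% of all genes tested were called, 2.71% higher and 2.14% lower. Groups that did not overlap were found for 20.2% of the set, where 27.2% of all genes tested had them. Gm26889 had 8.62, 3.51 and 3.08 FPKM at day 7, against 1.49, 1.503 and 1.25 FPKM at day 1 (log2 fold change 1.22, SE 0.28, limma adjusted p = 0.0452). Snhg20 had 20.2, 18.2 and 15.2 FPKM at day 7, against 8.97, 10.5 and 13.4 FPKM at day 1 (log2 fold change 0.67, SE 0.14, limma adjusted p = 0.0391). In both, every day 7 library was above every day 1 library.

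Gm26522 fell to 0.984, 0.848 and 0.992 FPKM at day 7, against 5.01, 4.996 and 3.11 FPKM at day 1 (log2 fold change -1.45, SE 0.20, limma adjusted p = 0.0105). Its day 7 level lay within the range of the sham libraries. Gm26825 had 27.7, 30.4 and 36.2 FPKM at day 7, against 58.5, 47.8 and 61.7 FPKM at day 1 (log2 fold change -0.81, SE 0.17, limma adjusted p = 0.0357), and its day 1 level overlapped with sham. The assembled locus XLOC_031863 had 0.607, 1.54 and 1.53 FPKM at day 7, against 3.49, 3.22 and 4.28 FPKM at day 1 (log2 fold change -1.09, SE 0.19, limma adjusted p = 0.0221). Its sham libraries, at 3.63, 3.31 and 4.44 FPKM, overlapped with those of day 1. With every day 7 library under 2 FPKM, this locus entered the set through day 1 and sham, where it was high. None of the 5 stayed called without both libraries with airway markers, nor without the 2 day 7 libraries low in Gm26917.

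The counts of the 32 assembled loci describe how the set was made up and support no difference, since a low-level locus that reached the minimum only through sham had to be lower in infarct hearts. At day 1, 0 of them rose and 12 fell (37.5%), and at day 7, 1 rose and 18 fell (56.3%), where 14.8% and 17.3% of all genes were called lower. The 131 genes with a symbol had 7 rises and 18 falls at day 1 (5.34% and 13.7%) and 10 rises and 24 falls at day 7 (7.63% and 18.3%), falls close to the background. At day 1, 29 of the 32 loci lay below the median fold change of all genes, and at day 7 30 did, also under TPM. The median log2 fold change of the loci was -0.62 at day 1 and -0.83 at day 7.

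The loci were of low level, with a median of group means of 2.59 FPKM at day 1 and 2.24 FPKM at day 7, against 4.68 FPKM in sham. The 18 loci at 2 FPKM or more in every group mean, again a restriction that removes loci that fell, had 4 falls and no rise at day 1 and 6 falls and 1 rise at day 7, with median log2 fold changes of -0.46 at both times. Summed over all 32, the loci had 120, 122 and 135 FPKM at day 1 and 79.3, 131 and 141 FPKM at day 7, against 218, 231 and 192 FPKM in sham. Every infarct library was below every sham library. Loci that entered the set only through sham are part of these sums, so the sums too support no difference. The 12 ventricular cardiomyocyte markers, of which 7 fell at each time and none rose, summed to between 19494 and 24381 FPKM at day 1 and between 15334 and 27505 FPKM at day 7, against 36911 to 40416 FPKM in sham. Their part in the falls of the loci was not tested, and in whole hearts fewer cells of a type and less RNA per cell cannot be told apart. Without both libraries with airway markers, 1 locus fell at day 1 and 8 fell at day 7, with medians of -0.48 and -0.83.

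**Figure D4:**
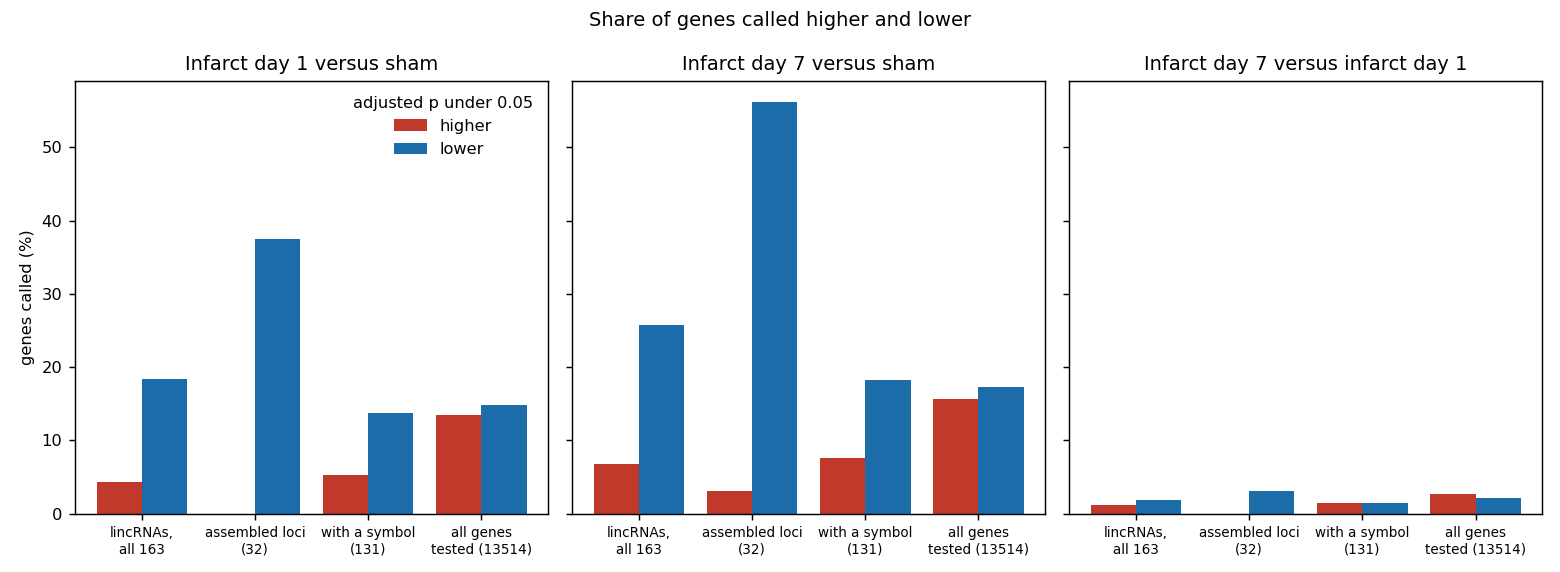
Share of genes called higher (red) and lower (blue) at an adjusted p under 0.05 among all 163 lincRNA genes, the 32 assembled loci, the 131 genes with a symbol and all 13514 genes tested, for the 3 comparisons. The assembled loci had 37.5% lower at day 1 and 56.3% at day 7, against 14.8% and 17.3% of all genes tested, and loci that entered the set only through sham are among them.

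Neither RNA of the nuclear bodies passed the test. Malat1 had 9419.6, 9429.6 and 7148 FPKM at day 1 and 5619, 5985 and 6238 FPKM at day 7, against 7801, 7999 and 7734 FPKM in sham. The day 7 libraries were all below the sham libraries, but the log2 fold change of -0.40 (SE 0.18) did not pass (limma adjusted p = 0.112). Neat1, the gene of the paraspeckle RNA, had 159, 171 and 132 FPKM at day 1 and 135, 130.2 and 123 FPKM at day 7, against 172, 125 and 173 FPKM in sham, with overlapping groups. A single transcript of 3004 nt, ENSMUST00000174287.1, held 98.6% of its FPKM at day 1, 98.0% at day 7 and 98.6% in sham. The levels of Neat1 are thus almost wholly those of this transcript, and other forms of the RNA were not judged.

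Among the hosts of small nucleolar RNAs, which guide the modification of ribosomal RNA, Snhg18 rose at both times and Snhg20 at day 7. In 2900076A07Rik GENCODE also places a small nucleolar RNA entry, named Mir1839. That gene fell at day 7 and is described with the microRNA hosts. Snhg18 had 14.5, 14.1 and 11.6 FPKM at day 1 and 18.8, 13.4 and 13.6 FPKM at day 7, against 8.54, 10.1 and 9.34 FPKM in sham. No infarct library was as low as a sham library, but the Snhg18 call was lost in 8 of 23 alternative settings at day 1. At day 7 it was lost in 2 of 23. Snhg12 had 21.1, 20.5 and 18.5 FPKM at day 1 and 19.1, 18.3 and 14.7 FPKM at day 7, against 15.3, 14.5 and 19.6 FPKM in sham, and was not called. Snhg6 (log2 fold change 0.18 at day 1 and 0.15 at day 7) and Epb41l4aos (0.16 and 0.17) were not called either.

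The Snhg20 rise came with a shift in the shares of its transcripts. The transcript ENSMUST00000145438.1 held 36.0% ± 5.31 of the gene's FPKM at day 1 and 52.0% ± 6.23 at day 7, against 22.5% ± 7.34 in sham (SD, n = 3 each). Its lowest day 7 share, 45.5%, was above its highest sham share, 30.7%. In that day 7 library, replicate 3, the transcript that led in sham, ENSMUST00000149822.1, still led with 54.55%. When each gene was represented by its single most abundant transcript, the day 7 log2 fold change of Snhg20 was 0.01 and was not called. The division of reads among transcripts was the authors', so these shares carry no test. The most abundant transcript, taken from group sums, also differed between groups in 4930562F07Rik, Pvt1, 2310001H17Rik, 2310040G24Rik, Gm37494 and 2 assembled loci, which makes 8 genes of the set with Snhg20. Shares could spread widely within a group. In 4930562F07Rik, ENSMUST00000169600.1 held 31.8%, 49.9% and 73.9% in sham. In 2310040G24Rik, ENSMUST00000188135.1 held 29.5%, 53.5% and 52.7% at day 7, so a single library set which transcript led. The list is thus a description and shows no switch of transcripts.

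Of the microRNA hosts, 2900076A07Rik, named after its values were seen, fell at day 7. It had 24.7, 19.99 and 19.8 FPKM at day 1 and 15.6, 21.3 and 25.3 FPKM at day 7, against 29.6, 32.1 and 29.8 FPKM in sham (day 7 log2 fold change -0.56, SE 0.16, limma adjusted p = 0.0304), a call lost in 11 of 23 alternative settings. Mir142hg, host of the blood cell microRNA miR-142, had 4.32, 15.0 and 1.78 FPKM at day 1 and 2.87, 15.8 and 1.89 FPKM at day 7, against 1.65, 1.68 and 0.848 FPKM in sham. It was not called (limma adjusted p = 0.192 at day 1). Its 2 highest libraries, day 1 replicate 2 and day 7 replicate 2, were also the 2 highest in summed T cell markers (17.6 and 92.2 FPKM). The same held for B cell markers (7.11 and 6.05 FPKM) and for monocyte and macrophage markers (1111 and 1061 FPKM). It did not hold for neutrophil markers (517 and 102 FPKM). The part of these cells was not tested. E130102H24Rik, host of miR-101a, was not called at day 1 or day 7 (log2 fold changes -0.15 and -0.34). Mir143hg, known as Carmn and as the host of smooth muscle microRNAs, had log2 fold changes of 0.21 and 0.12, and it was not called.

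Among conserved and cardiac lincRNAs, 1700020I14Rik, which RefSeq names Oip5os1 and which is known as Cyrano for directing the decay of the microRNA miR-7, fell at both times. It had 62.0, 56.8 and 72.8 FPKM at day 1 and 60.9, 57.8 and 68.0 FPKM at day 7, against 86.6, 107 and 89.1 FPKM in sham (day 1 log2 fold change -0.56, SE 0.13, limma adjusted p = 0.0149; day 7 -0.59, SE 0.13, limma adjusted p = 0.0116). The groups did not overlap, but under TPM neither difference was called. Lincpint (log2 fold change -0.10 at day 1 and -0.27 at day 7), a target of p53, and Pvt1 (0.36 and 0.21), a neighbour of Myc, were not called. Bvht had 5.71, 7.16 and 8.13 FPKM at day 1 and 9.55, 7.45 and 7.99 FPKM at day 7, against 6.13, 5.89 and 6.04 FPKM in sham, and its day 7 call was lost in 11 of 23 alternative settings. 1010001N08Rik, which RefSeq names Gata6os after its neighbour, the cardiac transcription factor gene Gata6, had log2 fold changes of -0.07 and -0.48 and was not called.

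Some genes that the file types as lincRNA are listed by RefSeq as protein coding. Gm34302 is Strit1, which encodes the muscle micropeptide DWORF, an activator of the calcium pump SERCA. It had 154, 346 and 963 FPKM at day 1 and 226, 535.5 and 504 FPKM at day 7, against 1209.9, 929 and 1057 FPKM in sham. Every infarct library but day 1 replicate 3 was below the lowest sham library, yet the spread left it uncalled (day 1 log2 fold change -1.51, SE 0.60, limma adjusted p = 0.0902; day 7 -1.42, SE 0.60, limma adjusted p = 0.0959). Within day 1, its lowest library, replicate 1, had the highest sum of atrial cardiomyocyte markers (11106 FPKM) and its highest, replicate 3, the lowest (284 FPKM). At day 7 its lowest library, replicate 1, again had the highest sum (5449.9 FPKM). In sham the order differed, as replicate 1 had both the highest Gm34302 level and the highest sum (2698 FPKM). The part of atrial cells was not tested. 1810058I24Rik, which encodes a small mitochondrial protein, had 39.6, 37.4 and 46.7 FPKM at day 1 and 63.3, 51.0 and 60.3 FPKM at day 7, against 60.0, 72.6 and 70.7 FPKM in sham. It fell at day 1 (log2 fold change -0.70, SE 0.13, limma adjusted p = 0.00695) and was not called at day 7 (limma adjusted p = 0.211). Lsmem2, which encodes a membrane protein and was named after its values were seen, fell at day 7 (-0.87 ± 0.28, limma adjusted p = 0.0433), a call lost in 15 of 23 alternative settings. 5430416O09Rik, named Spaar for a micropeptide that limits mTORC1 in muscle and described here after its values were seen, had log2 fold changes of -0.31 and -0.24 and was not called. Of the 9 genes so listed, 2 fell and none rose at day 1, and 1 rose and 1 fell at day 7. That is 22.2% called at each time, where 28.2% and 33.1% of all genes tested were called. The gene that rose, Gm38399, was matched under the name of Nav1, whose exons hold 8.1% of its leading transcript on the same strand. Its listing as coding is thus that of Nav1, and the 9 overstate the coding genes of the set.

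Exons of 35 genes of the set overlapped exons of a coding gene on the opposite strand, and in 17 the overlap covered 90% or more of the leading transcript. Whether reads were counted by strand is not given, so reads from such pairs cannot be told apart. For Gm26889, Svep1 had 7.57, 7.26 and 6.30 FPKM at day 1 and 32.6, 14.5 and 13.7 FPKM at day 7, against 5.58, 5.62 and 6.48 FPKM in sham. Svep1 was highest in the same library as Gm26889, and it rose at day 7 by nearly the same amount (log2 fold change 1.52, SE 0.28, limma adjusted p = 0.00716). In the same comparison 7 of 8 activated fibroblast markers rose, with a summed level of 3314 to 5239 FPKM at day 7, against 434 to 707 FPKM in sham, and the part of these cells was not tested. Gm26751 (0.66 ± 0.14) and Nynrin (0.42 ± 0.14) likewise both rose at day 7. Gm26899 and the zinc finger gene Zfp106, with 81.7% overlap, both fell at day 7 (-0.81 ± 0.19 and -0.60 ± 0.17).

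Over the 17 pairs, the fold changes of the lincRNA and the coding gene differed by a median of 0.11 log2 units at day 1 and 0.18 at day 7, and by 0.1 or less in 8 pairs at day 1 and 5 at day 7. For 65 genes of the set whose nearest coding gene shared no exon, the median difference was 0.38 and 0.35. Of the 17 lincRNAs, 0 were called at day 1 and 2 at day 7, and of the 65, 15 and 21. Genes that hardly change also differ little from each other, so these medians cannot tell shared reads apart. The 17 pairs were not alike throughout, as 3 pairs at day 1 and 5 at day 7 differed by over 0.25. The sign was the same in 12 of them at day 1 and 11 at day 7. Of the 3 called lincRNAs with a tested exon partner on the other strand at day 1, 2 had the partner called in the same direction. Of 5 at day 7, 3 had, and none had it called in the opposite direction at either time. Among all 32 tested pairs with such overlap, the partner was called in 5 at day 1 and 7 at day 7. Of all genes tested, 28.2% and 33.1% were called.

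**Figure D5:**
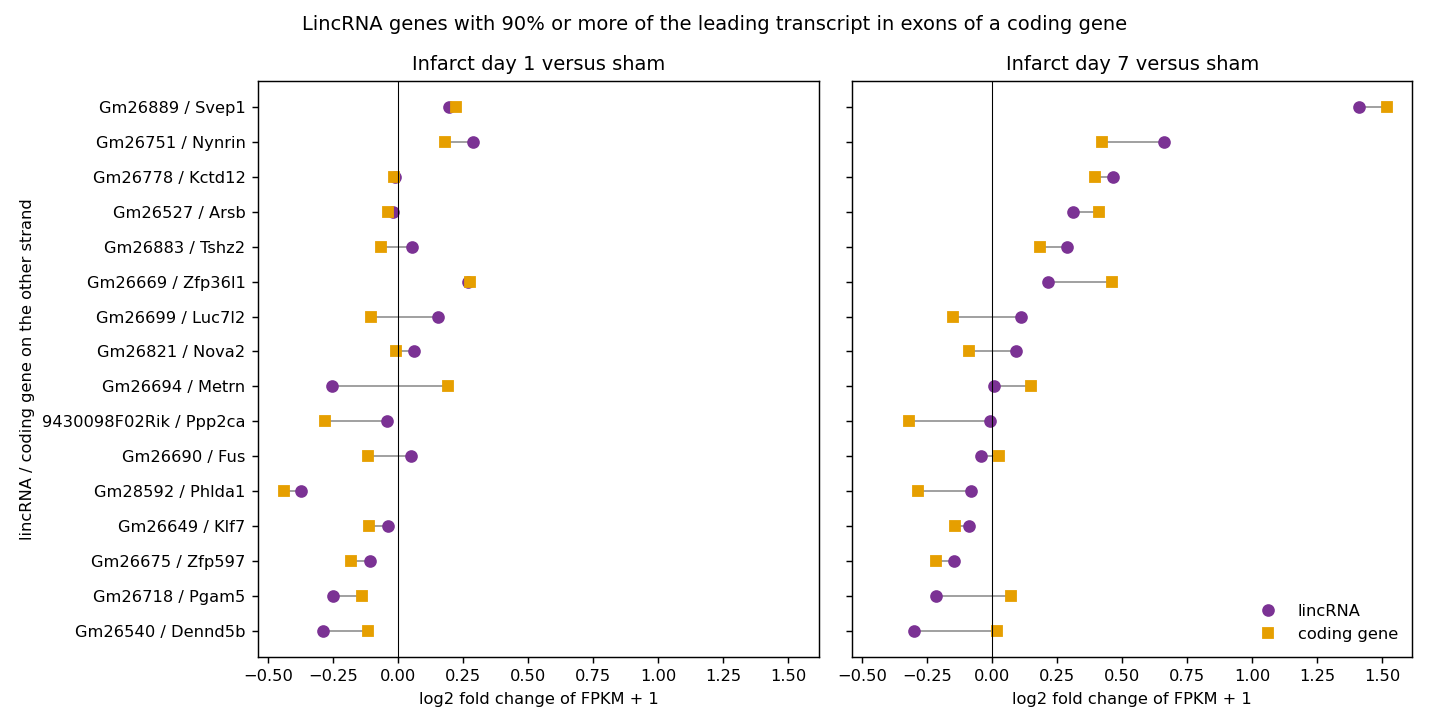
Log2 fold changes against sham, at day 1 (left) and day 7 (right), of lincRNA genes with 90% or more of the leading transcript in exons of a coding gene on the other strand (circles) and of that coding gene (squares), joined by lines, with 1 of the 17 pairs not drawn. Gm26889 and Svep1 lie together at 1.41 and 1.52 at day 7.

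Neighbours that share few or no exons were also measured. Ctsc, which encodes a protease that activates neutrophil enzymes, had 71.4, 101 and 78.0 FPKM at day 1 and 30.7, 30.0 and 23.9 FPKM at day 7, against 22.0, 15.0 and 34.0 FPKM in sham. Like Gm26522, which lies over it without exon overlap, it rose at day 1 (1.84 ± 0.26, limma adjusted p = 0.00361) and was lower at day 7 than at day 1 (-1.53 ± 0.26, limma adjusted p = 0.022). The ratio of Gm26522 to Ctsc was 0.0283 to 0.0701 over the libraries. Lyn, a Src-family kinase of leukocytes, rose at day 1 (0.75 ± 0.15, limma adjusted p = 0.0106) with Gm26857, which overlaps it in 7.4% of its leading transcript. In the same libraries 7 of 7 neutrophil markers rose, and their summed level was 302 to 545 FPKM at day 1, against 56.5 to 117 FPKM in sham. The part of these cells was not tested.

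Elsewhere neighbours went apart. Lsm8, next to Gm20186, fell at day 7 (-0.42 ± 0.08, limma adjusted p = 0.00979) while Gm20186 rose. Ms4a8a, the nearest coding gene to AW112010, rose at day 1 (1.65 ± 0.43, limma adjusted p = 0.0235) while AW112010 fell, and it stood at a low level (4.42 ± 3.31 FPKM at day 1 and 0.542 ± 0.270 FPKM in sham, SD, n = 3 each). Of 15 called genes at day 1 with a tested nearest coding gene and no shared exon, that gene was called in the same direction in 5 and in the opposite direction in 1. Of 21 at day 7, it was 5 and 2. Among all 65 such pairs, called or not, the coding gene was called in 19 at day 1 and 22 at day 7. Of all genes tested, 28.2% were called at day 1 and 33.1% at day 7. These counts carry no test.

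Genes of the pathways in which lincRNAs act are to be read against all genes tested, of which 13.5% were called higher and 14.8% lower at day 1, and 15.7% and 17.3% at day 7. Of 16 paraspeckle proteins, which assemble on Neat1, 1 rose and 3 fell at day 1, and 3 fell at day 7, among them Hnrnph3 (-0.37 ± 0.08 and -0.66 ± 0.08) and Matr3 (-0.29 ± 0.07 and -0.33 ± 0.07). Nono rose at day 1 (0.35 ± 0.07). Of 12 nuclear speckle proteins, none was called at day 1 and 2 fell at day 7, Srsf7 (-0.48 ± 0.13) and Srsf3 (-0.41 ± 0.12). Of 9 tested members of Polycomb repressive complex 2, 1 rose and 1 fell at day 1, and 1 rose and 2 fell at day 7. The catalytic subunit Ezh2 rose (0.61 ± 0.16 at each time) and its paralogue Ezh1 fell (-0.34 ± 0.08 and -0.28 ± 0.08). In the same libraries 8 of 8 cycling cell markers rose at both times, with summed levels of 57.7 to 80.0 FPKM at day 1 and 32.9 to 60.0 FPKM at day 7, against 7.37 to 20.1 FPKM in sham, and their part was not tested.

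The nuclear exosome and its adaptors, which degrade nuclear RNAs, had 1 rise and 3 falls among 16 genes at day 1, and 1 rise and 7 falls at day 7 (median log2 fold change -0.23, against -0.02 for all genes). Exosc7 fell at both times (-0.47 ± 0.12 and -0.57 ± 0.12), and Exosc5 (-1.81 ± 0.60), Dis3 (-1.32 ± 0.38) and Exosc3 (-0.60 ± 0.16) fell at day 7. Exosc5, a core subunit, had 0.267, 0.235 and 6.66 FPKM at day 7, against 7.02, 6.10 and 8.03 FPKM in sham. Dis3, a catalytic subunit, had 0.652, 0.630 and 4.01 FPKM at day 7, against 4.76, 5.29 and 4.83 FPKM in sham. The low values of both were in day 7 replicates 1 and 2, the libraries low in Gm26917, and replicate 3 of Exosc5 lay within the sham range. Exosc3 had 6.48, 7.03 and 10.6 FPKM at day 7, against 12.4, 13.3 and 11.8 FPKM in sham. Of 9 tested core proteins of small nucleolar ribonucleoproteins, 1 fell at day 1 and 3 at day 7, with Nop10 lower at both times (-0.55 ± 0.13 and -0.53 ± 0.13). Of 10 microRNA processing genes, none was called at day 1, and at day 7 Ago1 rose (0.35 ± 0.10) and Drosha (-0.30 ± 0.07) and Xpo5 (-0.26 ± 0.08) fell. Of 11 genes of nonsense-mediated decay, none was called at day 1, and 1 rose (Smg9, 0.30 ± 0.09) and 1 fell at day 7. Of 10 Xist partner proteins, Rlim rose at day 1 (0.28 ± 0.08) and Ythdc1 fell at day 7 (-0.37 ± 0.08), and of the 3 Pumilio proteins and partner none was called. Xist itself was hardly detected, with 0.184 to 0.578 FPKM over the libraries.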

How the data were processed

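RNA was extracted from hearts with TRIzol and made into sequencing libraries with a VAHTS Universal V6 kit, per the labels' protocols. FastQC 0.11.9, HISAT2 2.1.0, HTSeq 0.11.2 and the build GRCm39 are named in the submitters' processing notes. The authors deposited 1 table of FPKM per transcript (55361 transcript rows). Neither the annotation release nor the use of strand is stated in the labels or the file. Since 11.8% of values above 0 lay below 1e-06 FPKM, whole reads were not recovered and the depth is unknown. No counting interval is therefore given, and the precision comes from 3 libraries per group.

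FPKM of transcript rows were summed per gene. Genes with a mean of 1 FPKM or more (13514) were log2-transformed after adding 1 FPKM and compared in R 4.3.3 by limma 3.58.1, using a mean-variance trend, 1 mean per group over all 9 libraries, two-sided tests and Benjamini-Hochberg adjustment over all genes tested. With 3 libraries per group, an exact two-sided permutation p has a floor of 0.1, and none was used. Values after ± are SE for log2 fold changes. The script was tested on simulated data.

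Named genes were the 10 highest in mean FPKM, the 12 largest called changes per direction and comparison, fixed role lists, the genes nearest the minimum, those whose leading transcript differs between groups and the neighbours of named called genes; Yam1, Gm5532, Lsmem2, 2900076A07Rik, E130102H24Rik, 1010001N08Rik and 5430416O09Rik fell outside this rule and were named after their values were seen. The genes and lists were chosen with earlier results of these data known. Annotation came from GENCODE M21 and RefSeq on GRCm38.p6, matched by identifier or symbol, and coordinates of the deposited file's own build were not used. Replicate numbers were not treated as pairs. The 23 alternatives covered the pseudocount, the minimum level, scaling, model options, the replicate block, 1 transcript per gene and left-out libraries. Some genes are not reported here.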

Additional observations from a re-analysis of the deposited data

Results flagged for a closer look

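For 5 lincRNA genes the log2 fold change against sham differed between the infarct times, by the test of day 7 against day 1 in the same limma fit, which is the test of that difference because both times share the sham libraries. The difference, day 7 minus day 1, was -1.45 for Gm26522 (limma adjusted p = 0.0105), with log2 fold changes of 0.04 at day 7 and 1.48 at day 1. It was 1.22 for Gm26889 (limma adjusted p = 0.0452), with 1.41 at day 7 and 0.19 at day 1. The assembled locus XLOC_031863 had a difference of -1.09 (limma adjusted p = 0.0221), with -1.13 at day 7 and -0.04 at day 1. For Gm26825 the difference was -0.81 (limma adjusted p = 0.0357), with -0.75 at day 7 and 0.06 at day 1. For Snhg20 it was 0.67 (limma adjusted p = 0.0391), with 0.65 at day 7 and -0.01 at day 1. In all 5, the 3 libraries of day 7 lay on 1 side of the 3 libraries of day 1. Gm26522 reached 2 FPKM in the day 1 mean only and Gm26889 in the day 7 mean only. XLOC_031863 lay under 2 FPKM in every day 7 library, and so reached the minimum through day 1 and sham. Each of these 3 thus entered the set through groups where it was high, and its difference is a description. The call was lost in 2 of 22 alternative settings for Gm26522, 15 of 22 for Gm26889, 4 of 22 for XLOC_031863, 12 of 23 for Gm26825 and 15 of 23 for Snhg20. All 5 were lost without both libraries with airway markers and without the 2 day 7 libraries low in Gm26917. With only the most expressed transcript of each gene, the difference of Snhg20 was 0.26 (limma adjusted p = 0.407).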

How the results depend on the processing

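Leaving out 1 library at a time gave 5 to 11 rises and 14 to 36 falls at day 1, 8 to 12 rises and 18 to 39 falls at day 7, and 0 to 1 higher and 1 to 5 lower between day 7 and day 1. Day 1 falls numbered 18 without sham replicate 2 and 14 without day 1 replicate 2, and day 1 rises 11 without day 1 replicate 3. Day 7 falls numbered 20, 18 and 24 without sham replicates 1, 2 and 3, and 22 without day 7 replicate 1. Omitting the pair of libraries that held airway markers left 3 rises and 3 falls at day 1, 5 and 16 at day 7, and 0 of either between the times. Without the 2 day 7 libraries low in Gm26917, chosen after seeing the data, day 7 had 2 rises and 2 falls, and day 7 against day 1 had 1 higher and 0 lower. TPM gave 12 rises and 16 falls at day 1, 21 and 15 at day 7, and 0 higher between the times. TPM without mitochondrial genes gave 19 rises at day 1, 20 rises and 23 falls at day 7, and 1 higher between the times. A minimum mean of 5 FPKM, which leaves 73 of the set, gave 12 falls at day 1, 16 at day 7, and 1 higher and 1 lower between the times. No minimum gave 27 falls at day 7 and 0 higher between the times. Between the times, quantile normalisation gave 4 higher, fitting 2 groups only 0 higher and 1 lower, and the most expressed transcript 1 higher. Except where fewer libraries or genes entered by construction, the cause was not tested.

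The replicate numbers showed no sign of pairing. Same-numbered libraries correlated between -0.37 and 0.269 in their deviations from the group means, and differently numbered libraries between -0.53 and 0.403. With 3 libraries per group this check cannot exclude pairing. The replicate block gave 6 rises and 27 falls at day 1, 11 and 30 at day 7, and 0 higher and 2 lower between the times.

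Of 63 called results for named genes, 5 stayed called under every alternative run on them, 23 for Gm12840, Gm20186 and AW112010 at day 1 and 22 for Gm26522 at day 1 and Gm26889 at day 7, whose mean lies under the 5 FPKM minimum. Gm26522 and Gm26889 entered the set only through the group where they were high, so that their calls held is a description and no support. None of the 63 reversed under an alternative run on it. The depth is unknown, so differences of genes near 2 FPKM carry a counting error that could not be computed.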
